A study of Rattus norvegicus with 20 samples.

Results

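Basal cells are the stem and anchoring cells of the nasal lining, and 8 genes that mark them are described here: Krt5, Krt14, Krt15, Tp63, Lamb3, Cd44, Itgb4 and Itga6. They are 8 of the 14217 genes that the array annotation named by 1 symbol, and were found as every probe set whose only annotated symbol is one of these 8. This gave 13 of the 31042 probe sets tested: 1 each for Krt5, Krt14, Krt15, Lamb3 and Itgb4, 2 each for Tp63 and Cd44, and 4 for Itga6. Where a gene has several probe sets, the one with the highest mean signal over all arrays stands for it, and the others are given beside it.

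RNA was taken from the lining of the nose of healthy, untreated adult Sprague-Dawley rats and put on Affymetrix rat genome arrays, 1 array per sample. The groups were olfactory epithelium of males (6 arrays), respiratory epithelium of males (6 arrays), olfactory epithelium of females (2 arrays) and respiratory epithelium of females (6 arrays). The 13 rats, of which 7 were male and 6 female, were aged 11, 13 or 14 weeks, and 7 rats (5 male, 2 female) gave both tissues. The animals carried no genetic modification, and the tissue was collected by hand from the septum and the turbinates into an RNA preservative. The labels do not say how pure the collected cells were, so each array reads a mixture of cell types, and fewer basal cells cannot be told apart from less of an RNA in each basal cell.

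In respiratory epithelium, basal cells sit on the basement membrane and renew the ciliated and secretory cells above them. Keratins 5 and 14 pair into their filaments, the transcription factor p63 keeps the basal state, and hemidesmosomes, built on the α6β4 integrin, tie the cell to laminin-332 outside it. The olfactory epithelium has basal cells too: its horizontal basal cells also make keratins 5 and 14 and p63, and below the neurons they form a sparse reserve layer, while its globose basal cells make the neurons.

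The tissues stood apart as labelled. Of 8 measured genes of olfactory neurons, 7 were called higher in male olfactory than in male respiratory epithelium, beside 14% of all named genes. The summed signal of the 8 was 67082 to 79642 on male olfactory arrays, against 3476 to 15535 on male respiratory arrays. In a principal component analysis the first component (38.5% of the variance) separated the tissues. The second (15.8%) set female respiratory 8 (-113) and male respiratory 7 (-97.5) apart from the other respiratory arrays (-5.4 to 32.6). The olfactory arrays were spread along it too, from -68.1 to 84.4, so these 2 are set apart among respiratory arrays only. Female respiratory 8 also had the highest ratio of 3' to 5' signal of all arrays for the GAPDH control (log2 0.74) and for the β-actin control (log2 1.69), but its hexokinase control had the lowest ratio of the 12 respiratory arrays (log2 0.54, against 0.84 to 1.38 on the others). The RNA integrity number averaged 8.54 ± 0.26 in male olfactory epithelium (SD, n = 5 arrays with a value) and 9.20 ± 0.08 in male respiratory epithelium (SD, n = 4). It was 8.3 on both female olfactory arrays and 8.98 ± 0.26 in female respiratory epithelium (SD, n = 6). A probe set was called above background where its signal passed the 95th percentile of the bacterial control probe sets of its array, which lay between 28.2 and 64.9. The 8 genes were above this level on all 20 arrays, so their RNA was measured in both tissues.

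All 8 genes were lower in the olfactory than in the respiratory epithelium of males. The change, always given as olfactory minus respiratory on the scale of log2(signal + 16), ran from -4.24 for Krt15 to -1.53 for Krt14, and its median over the 8 genes was -2.31, against -0.05 over all 14217 named genes. By probe set, 12 of 13 were called lower and 0 higher at an adjusted p under 0.05 (limma, Benjamini-Hochberg over all 31042), while 13.6% of all probe sets were called lower and 11.6% higher. By gene, 8 of 8 were called lower, against 17.8% of all named genes. On 6 of the 13 probe sets, for 5 of the 8 genes, every olfactory array of either sex lay below every respiratory array, as it did for 3.43% of all probe sets. Within all 7 rats with both tissues, 10 of the 13 probe sets, for all 8 genes, were lower in the olfactory sample, as were 10.7% of all probe sets. The 8 genes were chosen with earlier results of these data known. The shares of all probe sets and genes are therefore a background to read beside the counts, and no test of the set.

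**Figure D1:**
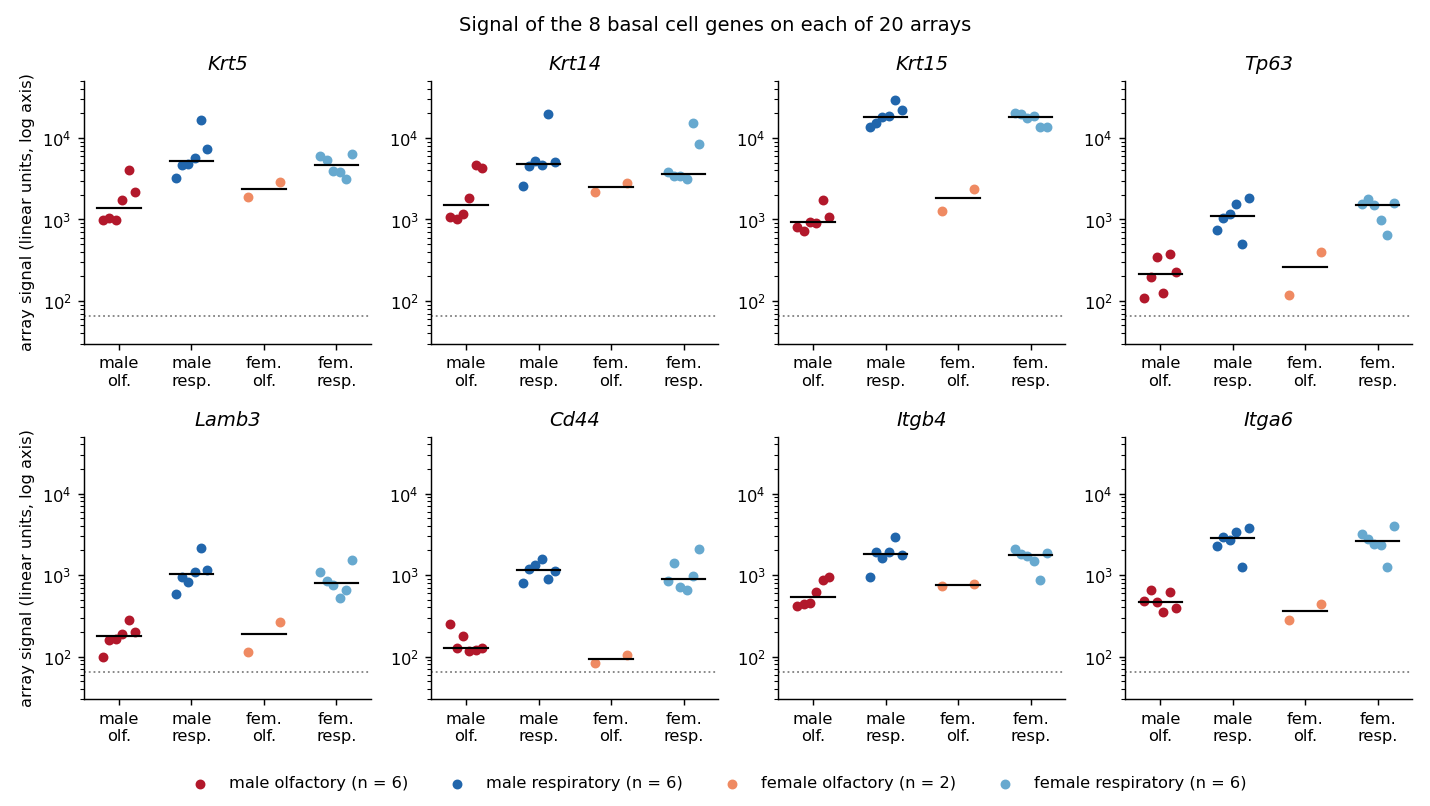
Array signal (linear units on a log axis) of the probe set that stands for each of the 8 genes, 1 point per array, with the median of each group as a bar and the highest background of any array (64.9) as a dotted line. Krt15 holds the widest gap, 714 to 2365 on olfactory and 13547 to 29322 on respiratory arrays, while the highest olfactory Krt5 and Krt14 points reach into the respiratory range.

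Krt5 and Lamb3 are the pair whose promoters are shown, because these 2 genes lie on different chromosomes and followed each other across the respiratory arrays. Both come from RefSeq on the rat assembly GRCr8 and run from 250 bases before to 50 bases after an annotated transcription start. The Krt5 promoter is chr7:134730520-134730819 on the minus strand, and that of Lamb3 is chr13:107362303-107362602 on the plus strand. Capitals mark the letters of the motifs searched.
Krt5: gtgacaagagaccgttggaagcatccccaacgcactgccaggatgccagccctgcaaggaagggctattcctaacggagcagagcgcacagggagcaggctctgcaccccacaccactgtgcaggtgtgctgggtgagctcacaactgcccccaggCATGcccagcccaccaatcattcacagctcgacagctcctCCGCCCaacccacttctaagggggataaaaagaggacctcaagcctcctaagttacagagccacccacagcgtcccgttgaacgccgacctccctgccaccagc
Lamb3: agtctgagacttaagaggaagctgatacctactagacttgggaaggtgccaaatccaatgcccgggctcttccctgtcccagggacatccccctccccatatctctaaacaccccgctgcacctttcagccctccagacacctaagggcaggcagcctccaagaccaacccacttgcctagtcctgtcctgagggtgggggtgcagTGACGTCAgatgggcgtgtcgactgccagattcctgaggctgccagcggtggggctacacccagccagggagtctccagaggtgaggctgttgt
Both strands of each promoter were searched for short motifs, none of which overlapped another in these windows. The core of a half-site of the p53 family, to which p63 belongs, was taken as CATG, and 62.6% of all 33469 promoters of this length in the table held it. Krt5 held one that begins 94 bases before the start. The GC box was taken as GGGCGG, which 33.1% of promoters held, and Krt5 had it as its reverse complement, beginning 54 bases before the start. Lamb3 held neither. It held the cAMP response element, taken as TGACGTCA, which reads the same on both strands, begins 44 bases before the start there and stands in 1.83% of promoters. The AP-1 motif was taken as TGANTCA (7.33% of promoters) and was in neither window. Nor was the AP-2 motif, GCCNNNGGC (15.1% of promoters). The TATA box, taken as TATAAA (14.2% of promoters), was in neither as well. Tp63 and Cd44, the other members with a promoter in the table, each held the p53 family core and none of the rest. A match is only a description of letters.

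The keratins differed most among themselves. Krt15, a type I keratin of basal cells whose gene lies in the same cluster as Krt14, had signals with a lowest, median and highest value of 714, 922 and 1738 on male olfactory arrays, against 13547, 18283 and 29322 on male respiratory arrays. On female arrays they were 1269 and 2365 in olfactory epithelium, against 13614, 18046 and 20098 in respiratory epithelium. No olfactory array came near a respiratory one: the highest olfactory signal, 2365 in female 8, lay far below the lowest respiratory signal, 13547 in male 1. The change in males was -4.24 (SE 0.22, adjusted p = 3.22e-11), 18.9-fold lower in olfactory epithelium. Among named genes it stood at rank 37 counted from the largest decrease. In females the change was -3.28 (SE 0.32, adjusted p = 8.45e-07), 9.72-fold lower.

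Krt5, the type II keratin that defines basal cells, had signals with a lowest, median and highest value of 981, 1393 and 4074 on male olfactory arrays, against 3273, 5290.2 and 16505 on male respiratory arrays. Olfactory signals thus reached into the respiratory range: male olfactory 7, at 4074, lay above male respiratory 1, at 3273. That male 7 also had the highest respiratory signal, 16505, and the next highest respiratory signal was 7337 in male 8. Krt5 was lower in male olfactory epithelium by a change of -1.93 (SE 0.35, adjusted p = 0.000207), a 3.81-fold difference. On female arrays its signals were 1869 and 2903 in olfactory epithelium, against 3168, 4627 and 6341 as the lowest, median and highest in respiratory epithelium. These female groups did not overlap, but the change of -0.98 (SE 0.50, 95% interval -2.002 to 0.051) did not pass the test (adjusted p = 0.185).

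Krt14, the type I partner of Krt5, had signals with a lowest, median and highest value of 1022, 1495 and 4624 on male olfactory arrays, against 2541, 4849 and 19882 on male respiratory arrays. The groups overlapped: male olfactory 7 and 10, at 4624 and 4306, lay above male respiratory 1, and male 7 again held the highest signal of both tissues. The change in males was -1.53 (SE 0.47, adjusted p = 0.0183), 2.89-fold lower and the smallest of the 8. On female arrays Krt14 had signals of 2158 and 2795 in olfactory epithelium, against 3097, 3656 and 15304 in respiratory epithelium. The highest came from female respiratory 8, and the change of -1.05 (SE 0.66, 95% interval -2.43 to 0.32) was not called (adjusted p = 0.298).

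The keratins therefore did not fall by the same amount. Taken within each male array, the log2 ratio of Krt15 to Krt5 differed by -2.31 between olfactory and respiratory epithelium, and that of Krt15 to Krt14 by -2.71, with no overlap between the tissues in either ratio. Both had an adjusted p of 0.00432 in an exact two-sided permutation test over 6 against 6 arrays, whose smallest possible p is 0.00216, adjusted over 4 pairs that were chosen after their values were seen. The ratio of Krt5 to Krt14 differed by -0.40 (exact permutation test, adjusted p = 0.0837). The call for this pair turned on 1 array: without male respiratory 7 the difference was -0.48 (exact permutation test, adjusted p = 0.0216). Keratin genes resemble each other in sequence, and the probe sequences were not used here, so a share of signal from a related keratin cannot be told apart.

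Tp63 encodes p63, and its brighter probe set had signals with a lowest, median and highest value of 108, 213 and 382 on male olfactory arrays, against 505, 1095 and 1847 on male respiratory arrays. The tissues did not overlap, and here male respiratory 7, the array with the most Krt5, was the lowest respiratory array. The change in males was -2.23 (SE 0.35, adjusted p = 4.22e-05), 4.69-fold lower. In females Tp63 had signals of 118 and 399 in olfactory epithelium, against 643, 1519 and 1787 in respiratory epithelium, with the lowest again on a set-apart array, female respiratory 8. The change was -2.44 (SE 0.50, adjusted p = 0.0015), 5.44-fold lower. The second probe set, whose name marks it as shared by several transcripts of the gene, was dim: 1 of 8 olfactory arrays lay above background, against 11 of 12 respiratory arrays. Its change in males was -1.55 (SE 0.37, adjusted p = 0.00271), and in females, where both olfactory arrays were under background, it was at least 2.01-fold lower (adjusted p = 0.00966).

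Lamb3, the β3 chain of laminin-332, had signals with a lowest, median and highest value of 98.0, 176 and 283 on male olfactory arrays, against 581, 1021 and 2125 on male respiratory arrays. It had signals of 112 and 266 on female olfactory arrays, against 528, 803 and 1515 on female respiratory arrays. All 8 olfactory arrays lay below all 12 respiratory arrays. The change was -2.47 in males (SE 0.30, adjusted p = 1.36e-06), 5.52-fold lower, and -2.18 in females (SE 0.42, adjusted p = 0.000913), 4.53-fold lower.

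Itga6 and Itgb4 encode the 2 chains of the α6β4 integrin, the laminin receptor of hemidesmosomes. Itga6 had signals with a lowest, median and highest value of 351, 468 and 658 on male olfactory arrays, against 1246, 2846 and 3792 on male respiratory arrays, and of 279 and 444 on female olfactory arrays, against 1263, 2599 and 3983 on female respiratory arrays. The tissues did not overlap, and the lowest respiratory values were those of male respiratory 7 and female respiratory 8. The change was -2.38 in males (SE 0.27, adjusted p = 4.82e-07), 5.22-fold lower, and -2.78 in females (SE 0.38, adjusted p = 2.52e-05), 6.87-fold lower.

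Of the other 3 probe sets of Itga6, 2 were lower as well, with changes of -1.69 (adjusted p = 0.000216) and -2.18 (adjusted p = 0.000856) in males and of -1.87 (adjusted p = 0.00438) and -2.84 (adjusted p = 0.00353) in females. The last read 63.02 to 107 on olfactory arrays, against 28.0 to 117 on respiratory arrays, close to background in both tissues. It was the 1 probe set of the 13 not called in males, with a change of 0.21 (SE 0.27, 95% interval -0.36 to 0.77, adjusted p = 0.647). The last probe set therefore did not follow the other 3, which were called lower in both sexes, but so close to background it could not show small differences. Which stretches of the transcript the probe sets read was not used here.

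Itgb4 had signals with a lowest, median and highest value of 419, 539 and 947 on male olfactory arrays, against 958, 1825 and 2948 on male respiratory arrays. The male groups touched without overlapping, at 947 in male olfactory 10 and 958 in male respiratory 1. On female arrays Itgb4 had signals of 732 and 776 in olfactory epithelium, against 869.7, 1772 and 2069 in respiratory epithelium. The change was -1.54 in males (SE 0.26, adjusted p = 7.46e-05), 2.91-fold lower, and -1.06 in females (SE 0.36, adjusted p = 0.046), 2.08-fold lower. Leaving out female arrays 1 at a time took the call in females away in 7 of 8 cases, with an adjusted p of 0.056 to 0.251, and kept it only without female respiratory 8 (adjusted p = 0.0103). In males the log2 ratio of Itga6 to Itgb4 differed by -0.84 between the tissues (exact permutation test, adjusted p = 0.0974), and by -1.20 without male respiratory 7 (exact permutation test, adjusted p = 0.00577), so whether the 2 chains differed unequally rested on that array.

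Cd44, a receptor for hyaluronan that basal cells and many leukocytes carry, had signals with a lowest, median and highest value of 117, 127 and 251 on male olfactory arrays, against 808, 1150.3 and 1583 on male respiratory arrays. On female arrays they were 83.6 and 104 in olfactory epithelium, against 654, 906 and 2062 in respiratory epithelium. No olfactory array reached a respiratory one. The change was -2.80 in males (SE 0.26, adjusted p = 3.48e-08), 6.95-fold lower, and -3.24 in females (SE 0.36, adjusted p = 4.17e-06), 9.46-fold lower. The second probe set gave -2.89 in males (SE 0.30, adjusted p = 2.22e-07) and -2.83 in females (SE 0.43, adjusted p = 8.59e-05).

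**Figure D2:**
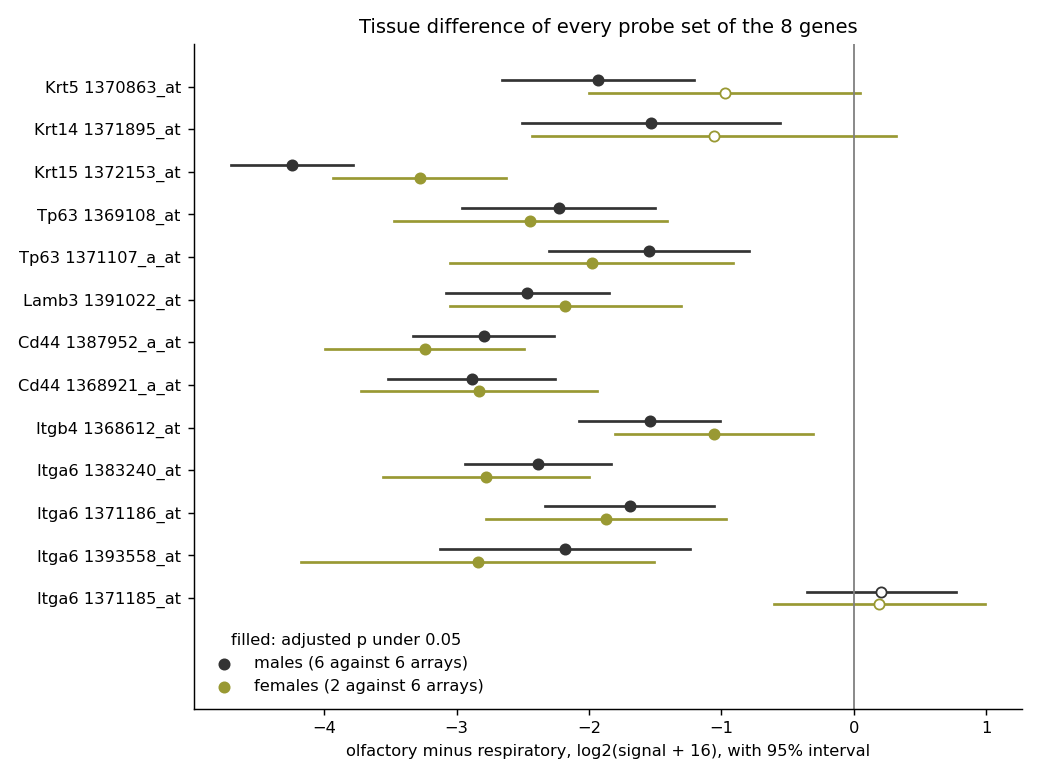
Olfactory minus respiratory difference on the log2(signal + 16) scale, with its 95% interval, for each of the 13 probe sets in males (upper, dark) and females (lower, olive); filled points passed an adjusted p of 0.05. In males 12 of 13 points are filled and lie below 0, in females 10 of 13, and 1 dim Itga6 probe set lies beside 0 in both.

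Leukocyte genes were also mostly lower in olfactory epithelium. In the male tissue comparison 17.8% of all named genes were called lower and 14% higher, as a background for the marker counts here. Of 11 leukocyte markers, 10 were lower in male olfactory epithelium. The summed signal of the 11 was 2801 to 5760 on male olfactory arrays, against 14430.2 to 23672 on male respiratory arrays. In females it was 3839 to 4493 on olfactory arrays, against 10457 to 37447 on respiratory arrays, with the highest on female respiratory 8. Cd3d, Itgam and Cd79b were under background on all olfactory arrays. Of 7 connective tissue markers 6 were lower in male olfactory epithelium, with sums of 12065 to 22309.5 on male olfactory arrays, against 24871 to 46257 on male respiratory arrays. Of 9 markers of squamous epithelium, the flat stratified lining found at the front of the nose, 6 were lower in male olfactory epithelium, with sums of 1227 to 2688 on male olfactory arrays, against 6144 to 23218 on male respiratory arrays. The markers shared by smooth muscle and the myoepithelial cells of glands, the second of which also make keratins 5 and 14, overlapped, with sums of 2131 to 6532 on male olfactory arrays, against 4476 to 7846 on male respiratory arrays, although 4 of 7 were called lower. The other marker lists were mixed or mostly not called. Of 5 ciliated cell markers 1 was lower and 0 higher, and of 7 goblet and secretory cell markers 2 were lower and 0 higher. Of 6 endothelial markers 3 were lower and 1 higher, and of 7 markers of Schwann cells and ensheathing glia 2 were lower and 3 higher. The part of any of these cell types in the result was not tested.

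In females 10 of the 13 probe sets and 6 of the 8 genes were called lower, beside 10.3% of all probe sets. This count was 4 without female olfactory 6, beside 3.34% of all probe sets, and 9 without female olfactory 8, beside 5.79%. With age as a term in the model, an alternative added after the data were seen, it was 12, beside 10.9% of all, with Krt5 (adjusted p = 0.0391) and Krt14 (adjusted p = 0.0223) among the calls. The RNA integrity number, which was lower in the olfactory samples of both sexes, moved with tissue. With this number in the model, on the 17 arrays that have it, 8 of the 13 male probe sets and 7 of the 8 genes stayed past the threshold. Calls fell over the whole array in that fit, to 3.42% of all probe sets lower in males and 1.78% in females. The call of Tp63 was lost at an adjusted p of 0.0538, with a change of -1.90. In females 4 probe sets stayed. On the same arrays without the covariate 11 male probe sets were called, beside 4033 of all 31042, and Krt14 was lost at an adjusted p of 0.0533, with a change of -1.33.

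The difference between the tissues was not shown to depend on sex. The interaction of sex and tissue was called for 0 of the 13 probe sets and for 0% of all (limma), with 1 of the 13 and 1516 of all 31042 at an unadjusted p under 0.05. The 1 was Krt15, whose change was 0.96 smaller in size in females (SE 0.39, unadjusted p = 0.0206, adjusted p = 0.924). Between female and male respiratory epithelium 0 of the 13 were called, beside 0.0258% of all, and 0 of the 13 had an unadjusted p under 0.05, beside 1160 of all. The 8 genes differed there by -0.41 (Krt5, 95% interval -1.14 to 0.32) to 0.28 (Tp63, 95% interval -0.46 to 1.01), female minus male. Between female and male olfactory epithelium, with 2 against 6 arrays, 0 of the 13 were called, beside 0.0419% of all, with 1 of the 13 and 1583 of all at an unadjusted p under 0.05. It was again Krt15, at 1269 and 2365 in females, against 714 to 1738 in males (change 0.81, SE 0.32, unadjusted p = 0.0176, adjusted p = 0.901).

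Rats with both tissues gave the difference within 1 animal. Krt15 was lower in the olfactory sample by a difference of -4.39 to -2.52 on the log2 scale over the 7 rats, with a median of -4.06. Cd44 had a median within-rat difference of -2.86 (-3.58 to -1.63), Lamb3 of -2.46 (-2.84 to -1.24), Tp63 of -2.31 (-3.51 to -0.39) and Itga6 of -2.24 (-3.22 to -0.98). Krt14 had one of -2.10 (-2.45 to -0.65), Krt5 of -1.72 (-2.29 to -0.13) and Itgb4 of -1.58 (-2.08 to -0.16). The smallest differences of Krt5, Krt15, Lamb3 and Itgb4 came from female 8 and those of Tp63 and Itga6 from male 7, the rats of the 2 set-apart respiratory arrays. That of Cd44 came from male 1 and that of Krt14 from female 6, while female 8 had the largest for Krt14.

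**Figure D3:**
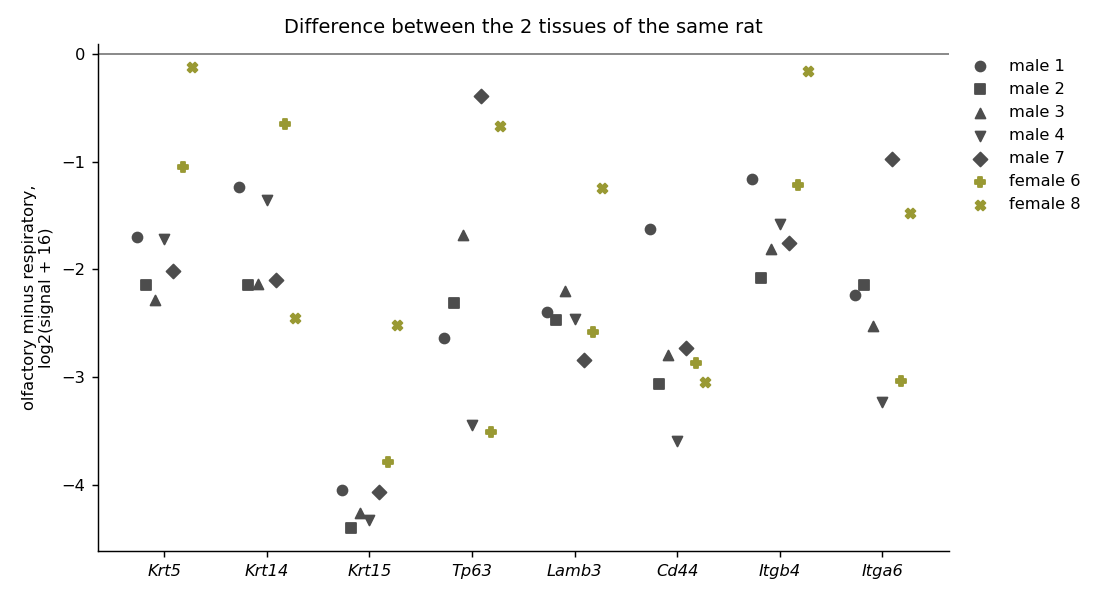
Olfactory minus respiratory difference on the log2(signal + 16) scale within each of the 7 rats with both tissues, by gene; dark points are 5 males and olive points 2 females. All points lie below 0, from -4.39 for Krt15 to -0.13 for Krt5.

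How the 8 genes varied together between arrays of 1 tissue depended on the tissue and on the 2 set-apart arrays. Over the 12 respiratory arrays, each from another rat, Krt5 followed Lamb3 (Pearson r = 0.92, Spearman rho = 0.94, permutation test, adjusted p = 0.00056 for each) and Itgb4 (r = 0.84, adjusted p = 0.00154, and rho = 0.78, adjusted p = 0.0277, permutation test). With Krt15 it gave r = 0.80 (adjusted p = 0.0164) and rho = 0.74 (adjusted p = 0.0277, permutation test). With Tp63 and Itga6 r was -0.08 and -0.07, and rho 0.48 and 0.50 (permutation test, adjusted p = 0.168 for either rho). With Krt14 it was r = 0.54 and rho = 0.48, and with Cd44 r = 0.22 and rho = 0.43, none of them past an adjusted p of 0.05. In all 14 relations were computed, 7 in each tissue, and p-values were adjusted over them.

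The 2 respiratory arrays farthest from the median of Krt5 were female respiratory 8 and male respiratory 7, and the relations depended on them. Without them, over 10 arrays, r was 0.94 for Itga6, 0.89 for Lamb3, 0.81 for Tp63, 0.73 for Krt14, 0.72 for Itgb4, 0.65 for Cd44 and 0.47 for Krt15. The relation of Krt5 with Krt15 thus rested on these arrays (permutation test, adjusted p = 0.21 without them), while those with Itga6 (permutation test, adjusted p = 0.00112), Tp63 (permutation test, adjusted p = 0.0164) and Krt14 (permutation test, adjusted p = 0.024) passed the threshold only without them. Over these 10 arrays 5 of the 7 relations passed for r. Over the 8 olfactory arrays Krt5 followed Krt14 (r = 0.93, rho = 0.88), Itgb4 (r = 0.90, rho = 0.86) and Krt15 (r = 0.85, rho = 0.79), with adjusted p-values for r of 0.0164, 0.0164 and 0.0223 (exact permutation test). For rho the adjusted p of Krt15 was 0.0651 (exact permutation test). Lamb3 followed at r = 0.75 and rho = 0.76 (exact permutation test, adjusted p = 0.0622 for r). Tp63 gave r = 0.47 and rho = 0.52, Itga6 r = -0.02 and rho = -0.14, and Cd44 r = -0.60 and rho = -0.60, none past the threshold. Without male olfactory 3 and 7, the arrays farthest from the median, r was 0.89 for Krt14, 0.91 for Itgb4 and 0.87 for Krt15 over 6 arrays. The arrays share sex, age and RNA quality in part, and these were not separated.

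**Figure D4:**
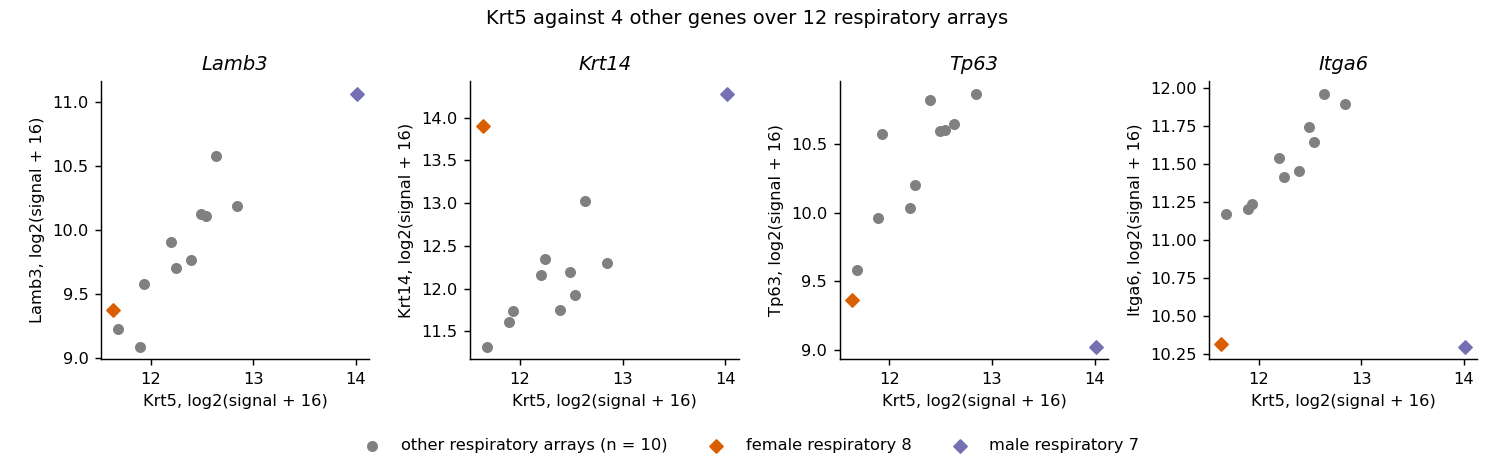
Krt5 against Lamb3, Krt14, Tp63 and Itga6 over the 12 respiratory arrays, both axes as log2(signal + 16), with the 2 set-apart arrays as diamonds. Lamb3 rises with Krt5 on all arrays (r = 0.92), while for Tp63 and Itga6 male respiratory 7 lies at the lower right, far from the other arrays (r = -0.08 and -0.07 with it and female respiratory 8, 0.81 and 0.94 without them).

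Male respiratory 7 held the highest respiratory signal of Krt5 (16505, against 3273 to 7337 on the 10 arrays other than the 2 set apart), Krt14 (19882, against 2541 to 8336), Krt15 (29322, against 13547 to 22346), Lamb3 (2125, against 528 to 1515) and Itgb4 (2948, against 958 to 2069). It lay below all 10 for Tp63 (505, against 752 to 1847) and Itga6 (1246, against 2294 to 3983). Female respiratory 8 was high for Krt14 (15304) but below the 10 for Krt5 (3168), Tp63 (643), Itgb4 (869.7) and Itga6 (1263). Its log2 ratio of Krt5 to Krt14 was -2.27, against -0.39 to 0.64 on the other respiratory arrays. Without these 2 arrays the male tissue comparison still called 12 of the 13 probe sets lower. Of all probe sets 18.2% were then called lower, against 13.6% with them.

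The genes whose pattern was nearest to Krt5 were taken as the 5 with the highest Pearson correlation among genes above background on 50% or more of the arrays of a tissue. Over the 12 respiratory arrays and 12495 genes these were Kifc1 (r = 0.96), a kinesin motor, Snx17 (r = 0.95), a sorting nexin, Trim29 (r = 0.95), Sprr1b (r = 0.93), a cornified envelope protein, and Lbp (r = 0.91), the lipopolysaccharide-binding protein. Trim29 was itself lower in male olfactory epithelium (change -1.99, SE 0.26, adjusted p = 4.1e-06), as was Lbp (change -1.11, SE 0.32, adjusted p = 0.0116), while Kifc1, Snx17 and Sprr1b were not called (adjusted p = 0.298, 0.494 and 0.107). Without the 2 set-apart arrays r was 0.75 to 0.95 for these 5. Over the 8 olfactory arrays and 12321 genes they were Tmem17 (r = 0.97), Oat (r = 0.97), Copz2 (r = 0.96), Twist1 (r = 0.96) and Cyp2s1 (r = 0.96). Both lists pick the top of very many correlations over few arrays, and no gene stood in both.

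Related genes were read from lists, each gene by 1 probe set. The lists, too, were chosen with earlier results of these data known, so their counts are no test of a list. In the male tissue comparison 14% of all named genes were called higher and 17.8% lower, and the lists share some genes with each other. Of 18 other genes of basal epithelial cells, 10 were lower and 0 higher, with a median change of -0.996. The largest changes were those of Igfbp3 (-3.48, SE 0.41, adjusted p = 1.09e-06), a binding protein of insulin-like growth factors, Sfn (-2.63, SE 0.42, adjusted p = 5.32e-05), the epithelial protein 14-3-3σ, and Tnfrsf19 (-2.40, SE 0.39, adjusted p = 5.41e-05), a receptor of the TNF family. The other 8 were not called. In females 7 genes of this list were lower and 1, Jag2, was higher, beside 10.3% of all probe sets lower and 7.64% higher.

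Of 22 genes of hemidesmosomes and basement membrane adhesion, 12 were lower and 0 higher, with a median of -0.73. Lama3, the α3 chain that joins the Lamb3 product in laminin-332, had a change of -2.26 (SE 0.34, adjusted p = 2.46e-05). Col17a1, the transmembrane collagen of hemidesmosomes, had one of -1.995 (SE 0.31, adjusted p = 2.8e-05) and Itgb1, the β1 integrin, one of -1.55 (SE 0.26, adjusted p = 6.76e-05).

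Of 12 other keratins 6 were lower and 0 higher, with a median of -1.24. Krt13, a keratin of stratified lining, was under background on all male olfactory arrays and at least 9.35-fold lower there (adjusted p = 1.02e-05). Krt4, its partner, changed by -3.25 (SE 0.50, adjusted p = 3.21e-05) and Krt7, a keratin of simple epithelium, by -3.21 (SE 0.23, adjusted p = 1.09e-09). In females Krt13 read 27.4 and 627 on olfactory arrays, against 150 to 807 on respiratory arrays. Neither Krt13 (-1.21, adjusted p = 0.289) nor Krt4 (-1.48, adjusted p = 0.16) was called in females, while Krt7 was lower (-2.98, adjusted p = 2.54e-06). Krt8 (-0.43, adjusted p = 0.133) and Krt18 (-0.31, adjusted p = 0.217), the pair of simple epithelium, were not called and are named after their values were seen.

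Of 16 desmosome and cell-cell adhesion genes 10 were lower and 0 higher, with a median of -1.41, led by the envoplakin gene Evpl (-2.80, SE 0.36, adjusted p = 3.23e-06), the plakophilin gene Pkp1 (-2.33, SE 0.28, adjusted p = 1e-06) and Perp (-2.30, SE 0.28, adjusted p = 1.54e-06). Of 11 hyaluronan and CD44 partners 6 were lower and 0 higher, with a median of -0.66. The matrix protease gene Mmp9 changed by -1.79 (SE 0.36, adjusted p = 0.000546), and Ezr and Msn, whose products tie CD44 to actin, by -1.40 (SE 0.24, adjusted p = 0.000106) and -1.15 (SE 0.27, adjusted p = 0.00271).

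Of 9 partners and targets of p63, 7 were lower and 0 higher, with a median of -2.30. The transcription factor gene Grhl3 was under background on all male olfactory arrays and at least 7.22-fold lower there (adjusted p = 9.7e-08), and Tfap2a, the AP-2α gene, changed by -2.97 (SE 0.40, adjusted p = 6.63e-06). Sfn, given above, was the third. The other 2 were not called: Fras1, which was under background on 7 of 8 olfactory and all 12 respiratory arrays, so that no change could be read, and Jag2, with 0.56 (adjusted p = 0.0578), both named after their values were seen. In females Jag2 was called higher in olfactory epithelium, with 1.42 (SE 0.30, adjusted p = 0.002), while 7 genes of this list were again lower.

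The list for olfactory basal cells, which also holds genes of neuron precursors and young neurons, went both ways. Its Gap43 is also among the olfactory neuron genes counted above. Of 15 measured, 5 were higher and 4 lower, with a median of -0.12. Gap43, a growth protein of young neurons (2.31, SE 0.34, adjusted p = 2.02e-05), and Neurod1, a transcription factor of neuron precursors (2.22, SE 0.40, adjusted p = 0.000214), were higher in male olfactory epithelium, and so were Neurog1 (1.24), Pax6 (1.23) and Hes6 (0.66). Icam1, an adhesion protein of horizontal basal cells, was lower (-1.97, SE 0.33, adjusted p = 7.89e-05), as were Kit (-1.50), Egfr (-1.29) and Sox2 (-0.47). Kit was above background on only 4 of 8 olfactory arrays. With the RNA integrity number in the model the calls of 5 of these lists dropped by more than 1.5 times: 2 of 22 for hemidesmosomes, 2 of 12 for keratins, 5 of 16 for desmosomes, 2 of 11 for CD44 partners and 5 of 15 for olfactory basal cells. Over all probe sets the calls dropped in that fit to 1285 higher and 1062 lower, against 3594 higher and 4230 lower without it.

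**Figure D5:**
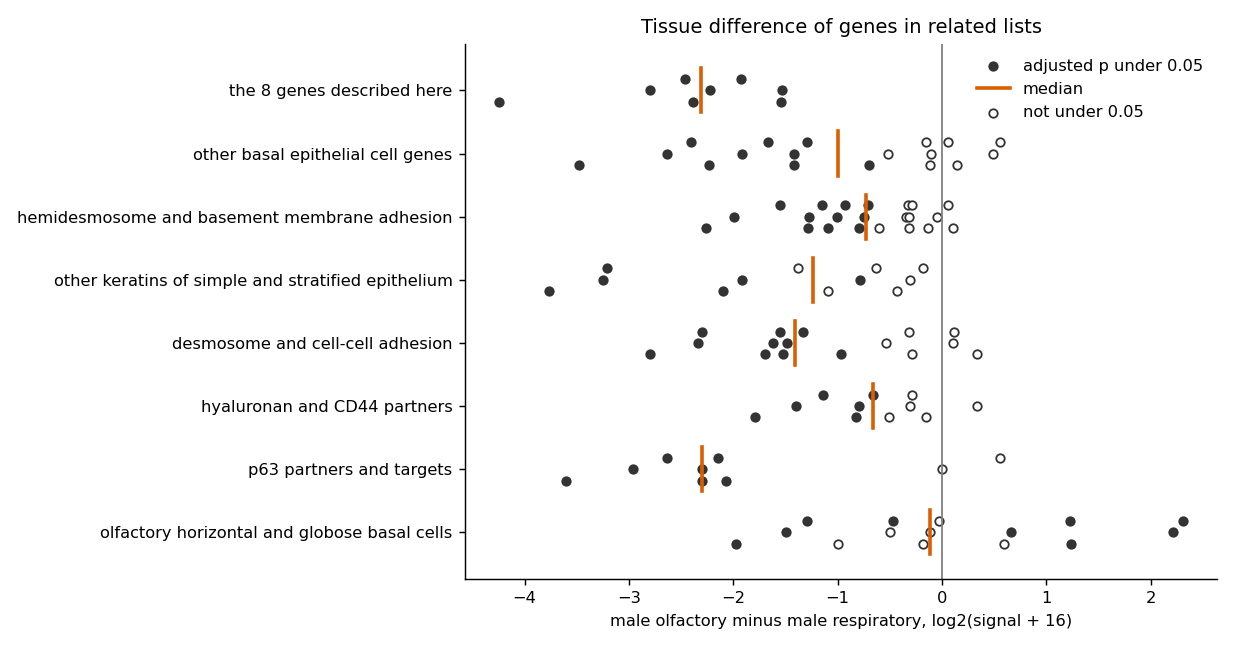
Male olfactory minus male respiratory difference on the log2(signal + 16) scale for the 8 genes and for each gene of the 7 lists; filled points passed an adjusted p of 0.05 and bars mark medians, from -2.31 for the 8 genes to -0.12 for the olfactory basal cell list. The fitted points of Krt13 and Grhl3, under background on all male olfactory arrays, stand at values that depend on the added 16.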

How the data were processed

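Total RNA, extracted with Trizol and a Qiagen kit per the labels' protocols, was labelled with biotin and read on 1 array per sample. What the authors deposited is an intensity for every probe set on a linear scale, made with the array maker's GCOS 1.0, per the submitters' processing notes. Neither its algorithm nor its scaling target is given in the sources used here. After trimming 2% at each end the mean was 500.1 to 500.3 on every array, and this scaling was kept. Arrays have no read depth, so precision is limited by how many there are.

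Tests covered 31042 of 31099 probe sets, the other 57 being controls. Exactly 1 symbol was annotated for 20826 of them, several for 436 and none for 9780. limma 3.58.1 in R 4.3.3 fitted the 4 group means over 20 arrays on log2(signal + 16), with a variance trend. Tests were two-sided, with Benjamini-Hochberg adjustment over all probe sets and a threshold of 0.05. Fold changes are on this scale and understate those of dim probe sets. Background on each array was taken from its 27 probe sets for bacterial controls, at their 95th percentile. Where every array of a group was under it, a bound replaces the fold. The fit was tested on simulated data.

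Arrays were grouped by the sex and tissue of their labels, and the same sex and number were read as 1 animal. The pairing comes from the labels: deviations from the group means correlated by -0.18 to 0.25 between the 2 tissues of a rat, with a consensus of 0.04. Series text speaks of 9 rats per sex, and 13 rats are analysed here. Replicates are separate rats. The genes and lists were chosen with earlier results of these data known. All members are named, with the 3 genes of largest called change in each list and the 5 nearest patterns in each tissue. Other names were chosen after their values were seen. Correlations used 100000 resamples, or all orders under 10 arrays, and figures used matplotlib 3.10.9. Alternatives were other added constants, quantile normalization, a filter on dim probe sets, the animal as a block, no variance trend, the RNA integrity number, age, additive sex and tissue terms, the mean of a gene's probe sets, and arrays left out. Probe sequences and genome positions of probes were not used here.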

Additional observations from a re-analysis of the deposited data

Results flagged for a closer look

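Within the 4 groups, each probe set's values were searched for 1 array far from the rest, by Dixon's test in the 3 groups of 6 arrays. Of 39 sets of values 3 held such an array, and chance gives about 1 in 20. Krt14 read 19882 on male respiratory 7, against 2541 to 5177 on the other male respiratory arrays. By 2 of its fainter probe sets Itga6 read 155.7 and 83.1 on female respiratory 8, against 438 to 779.7 and 497 to 935 on the other female respiratory arrays. Both arrays are the respiratory arrays that the second principal component sets apart, and on female respiratory 8 the ratios of 3' to 5' signal of GAPDH and β-actin and the leukocyte sum were also the highest, while the ratio of hexokinase was the lowest of the respiratory arrays.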

How the results depend on the processing

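In males 12 of 13 probe sets and 8 of 8 genes were called lower under most alternatives. Leaving out any 1 array gave 12 and 8 at the lowest and highest, beside 11.6% to 15.6% of all probe sets. No call changed its direction, while probe sets that were not called, such as the dimmest of Itga6 (-0.24 to 0.31), crossed 0. With the animal as a replicate block, random over all arrays or fixed over 5 males with both tissues, the male count stayed 12 and the random block left the female count at 10, so the pairing changed no call. Among males aged 14 weeks, 2 arrays a tissue, an alternative added after the data were seen, 4 probe sets and 3 genes were called, and of the lists 3 genes for basal cells, 0 for hemidesmosomes, 3 for keratins, 3 for desmosomes, 0 for CD44 partners and 2 for olfactory basal cells, with fewer samples. Of all probe sets 1.28% were then lower and 1.37% higher, and the genes that lost the call had changes of -1.87 (Krt5), -1.16 (Krt14), -1.66 (Tp63), -2.09 (Itga6) and -1.31 (Itgb4). The RNA integrity number as a covariate gave 8 male and 4 female probe sets, and list counts of 2, 2, 5, 2 and 5 for hemidesmosomes, keratins, desmosomes, CD44 partners and olfactory basal cells, while all calls dropped to 1062 lower and 1285 higher in males and 552 lower and 581 higher in females. The female count was 4 to 10 with 1 array left out, 4 without female olfactory 6. Without male respiratory 7 the unequal change of Krt5 and Krt14 was -0.48 (exact permutation test, adjusted p = 0.0216) and that of Itga6 and Itgb4 -1.20 (exact permutation test, adjusted p = 0.00577). Of 14 correlations with Krt5, 6 passed, 9 did without the 2 set-apart arrays and 7 after quantile normalization. The cause of these shifts was not tested.

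The female olfactory group has 2 arrays, which bounds its differences weakly. The dim second probe set of Tp63 and the dimmest of Itga6 lie near background, where small differences could not be seen.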

Other observations

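In males the signals of Krt5 were ordered by age, which was no comparison of the design. It read 981 to 1053 on the 3 olfactory arrays of rats aged 11 weeks, 1733 on the 1 at 13 weeks and 2202 to 4074 on the 2 at 14 weeks. In male respiratory epithelium it read 3273 to 4844 on 3 arrays, 5737 on 1 and 7337 to 16505 on 2 at the same ages. Lamb3 had the same order in males, with 98.0 to 166, 187 and 198 to 283 in olfactory epithelium, against 581 to 943, 1099 and 1147 to 2125 in respiratory epithelium. None of the other genes was ordered by age in both male tissues. Krt14 and Itgb4 were so in olfactory epithelium only, Krt15 in respiratory epithelium only, and Tp63, Cd44 and Itga6 in neither. The highest Krt5 and Lamb3 signals of both male tissues came from male 7, whose respiratory array is 1 of the set-apart arrays. In female respiratory epithelium Krt5 had no such order, with 5938 on 1 array at 11 weeks, 3784 to 5364 on 3 at 13 weeks and 3168 to 6341 on 2 at 14 weeks, and neither had Lamb3, with 1086, 528 to 856 and 649.5 to 1515. On the female olfactory arrays, 1 at 13 and 1 at 14 weeks, Krt5 read 1869 and 2903 and Lamb3 112 and 266. Every other gene described here also read higher on the array at 14 weeks. These are values of few rats per age, and no test was run.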
